A study of Nicotiana tabacum with 18 samples.

Results

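In tobacco leaves, 180 of 69500 genes were expressed in a female parent and silent in the male parent GDH11. A gene was included when its median was at most 0.1 FPKM over the 6 GDH11 libraries and at least 1 FPKM in G70 or in K326. FPKM is the number of fragments per kilobase of transcript scaled to the mapped fragments of the library, so levels of different genes can be set side by side. Genes whose lowest hybrid value lay above every parental value were to be left out, but 0 genes met that condition. The 180 genes made up 0.537% of the 33522 genes at 1 FPKM or more in a female parent. Below, "on" means a median of at least 1 FPKM, "off" a median of at most 0.1 FPKM, and "low" a median between these limits.

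The study compared the leaf transcriptomes of 2 F1 hybrids of Nicotiana tabacum and their inbred parents, chosen for strong and weak heterosis of leaf K+ content. In the first cross, G70 was the female parent (HP1), GDH11 the male parent (HP2) and G70×GDH11 the hybrid (H). In the second, K326 was the female parent (LP1), GDH11 the male parent (LP2) and K326×GDH11 the hybrid (L). Each of these 6 groups had 3 libraries of middle leaf at day 70. The plants were grown without a further treatment named in the labels. Per the study's methods, each sample mixed leaves of several plants from a field plot. GDH11 was thus sampled separately in both crosses, and the genes were chosen by the medians of the 6 GDH11, 3 G70 and 3 K326 libraries.

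Tobacco is an allotetraploid that carries the genomes of a pair of ancestral species, so many of its genes have a close relative in the other subgenome. An F1 hybrid receives one chromosome set from each inbred parent. Where a gene is expressed in only one parent, the hybrid may keep the transcript or lack it, a situation known as single-parent expression. If the GDH11 copy added nothing and the female copy worked as in the parent, the level would be the mid-parent value, that is 50% of the female parent.

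The libraries were broadly alike in summed FPKM and, apart from LP2 replicate 2, in the number of genes at 1 FPKM or more. Summed FPKM does not measure depth. The FPKM of a library summed to between 756862 and 818037, and 31474 to 33091 genes reached 1 FPKM in 17 libraries, against 27527 genes in LP2 replicate 2. Without that library, the same limits gave 198 genes, of which 169 were among the 180. It also correlated least with its group (Pearson's r over genes of log2(FPKM + 1) of 0.818 and 0.862). HP1 replicate 1, H replicate 3 and HP2 replicate 1 likewise stood apart within their groups (r of 0.867 to 0.893), and without these 3 the limits gave 263 genes, 161 of them among the 180. This set of 3 was defined by absence from the paper's list of libraries. Each of the 3 correlated more with libraries of other groups. The r was 0.944 for HP1 replicate 1 with H replicate 1, 0.963 for H replicate 3 with HP2 replicate 3, and 0.964 for HP2 replicate 1 with L replicate 3. The cause was not tested. Read totals are not part of the FPKM values, so the depth behind a low value is unknown. The identifiers carry no gene names or functions in the sources used here apart from a list of 26 K+ transport and homeostasis genes. Of these 26, 25 were on in a female parent and 0 belonged to the 180, the lowest GDH11 median among the 25 being 1.055 FPKM. The roles of the genes below are therefore not stated, and the leaf identity of the samples was not checked against marker genes.

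Most of the 180 genes were expressed weakly. Their higher female-parent median had quartiles of 1.27, 1.84 and 3.57 FPKM, while the median over all genes on in a female parent was 8.26 FPKM. It reached 5 FPKM for 29 genes and 20 FPKM for 5, with a highest value of 63.39 FPKM. In GDH11, the median was 0 for 129 genes, and 32 were at 0 in all 6 libraries. For 72 genes at least 1 GDH11 library nevertheless reached 1 FPKM, so a median hid scattered reads. The GDH11 medians of the separate crosses were at most 0.1 FPKM for 152 genes in HP2 and for 169 in LP2.

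The limits cut through a continuous range. Just inside the GDH11 limit, at 0.1 FPKM, lay Nitab4.5_0000008g0430 and Nitab4.5_0002661g0090, and just outside it, at 0.11 FPKM, lay Nitab4.5_0003379g0020 and Nitab4.5_0005380g0010. At the female limit, Nitab4.5_0002137g0120 and Nitab4.5_0002861g0030 had a K326 median of 1.01 FPKM. Nitab4.5_0000025g0370 and Nitab4.5_0006946g0060 missed it with a G70 median of 0.99 FPKM.

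The genes fell into 4 classes by their female-parent medians. G70 alone expressed 61, with K326 off. K326 alone expressed 41, with G70 off. The shared class held 34 genes on in both female parents, and the remaining 44 genes were on in one female parent and low in the other, here called between (20 on in G70 and 24 on in K326). Because many genes varied between libraries of the same parent, a steadier subset was set apart after the values were seen, from parental libraries only. In it, every library of each parent with the gene on was at least 1 FPKM and above every GDH11 library, and all libraries of GDH11 and of a parent with the gene off were under 1 FPKM. These 50 steady genes comprised 19 of G70 alone, 7 of K326 alone, 17 shared and 7 between.

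**Figure D1:**
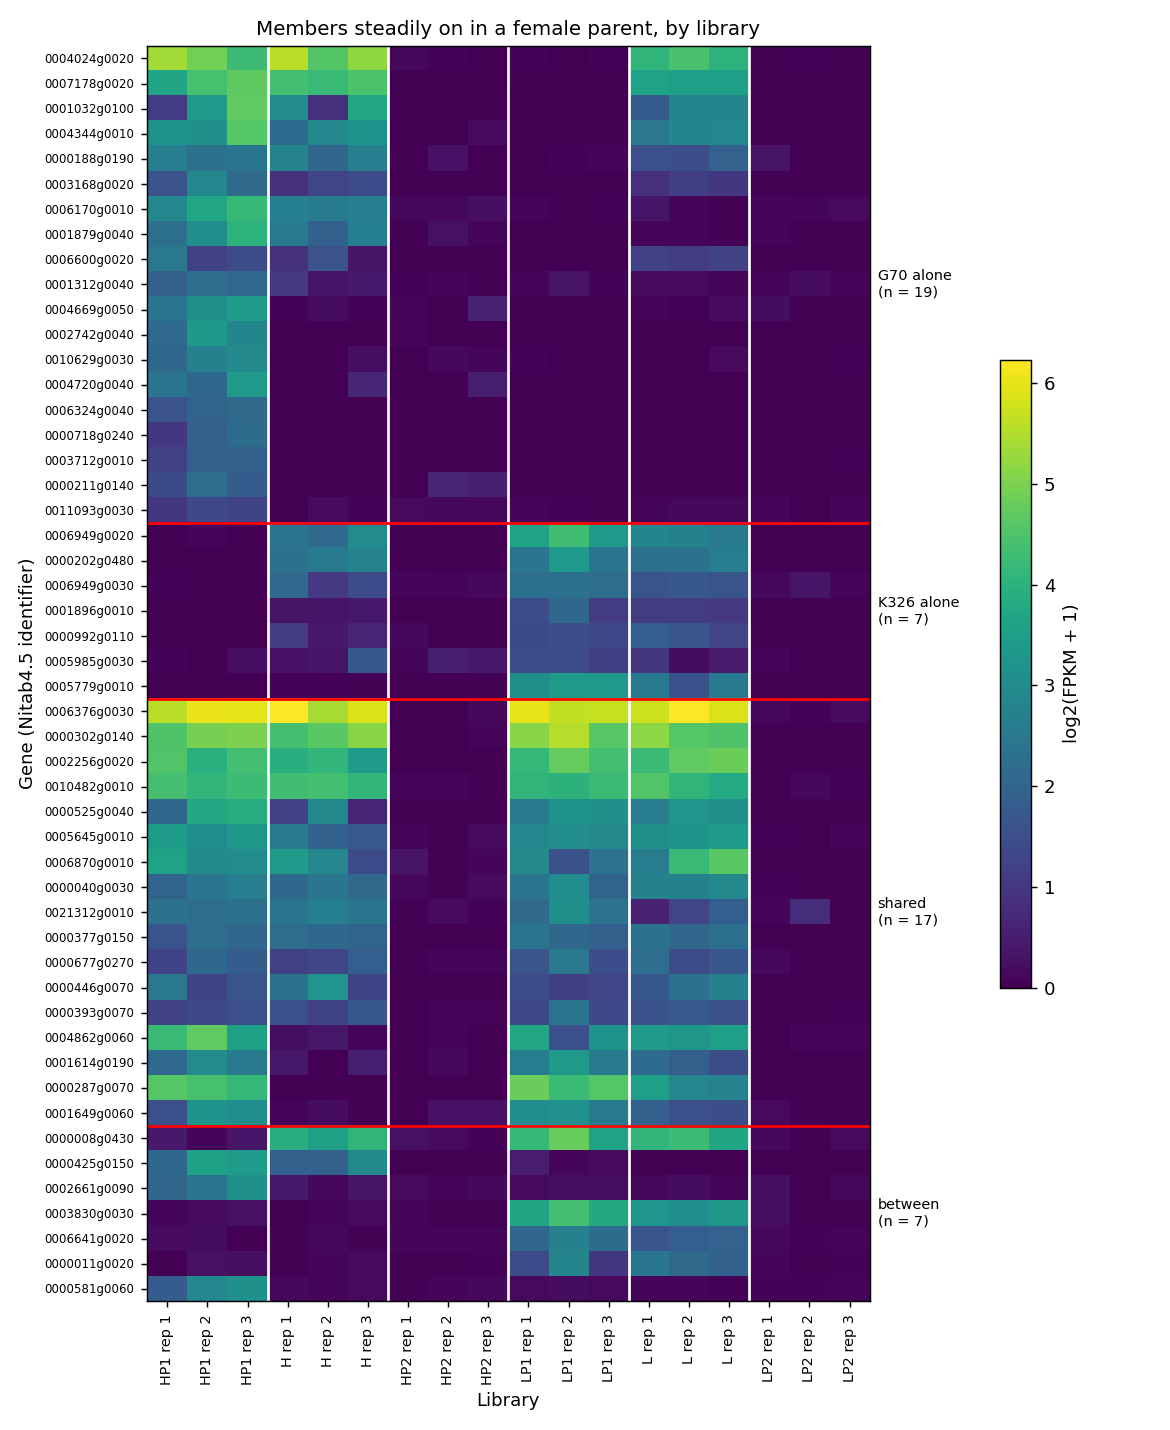
Heat map of log2(FPKM + 1) for the 50 steady genes (rows) in the 18 libraries (columns, 3 replicates for each of HP1, H, HP2, LP1, L and LP2), with red lines between the classes. The parental columns are bright or dark by selection, while the H and L columns were not used to choose the genes: 26 of the 50 genes were on in H and 34 in L.

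In the hybrids, the 180 genes split between expressed and silent, and more were on in L than in H. In H, 46 genes were on, 41 low and 93 off, and in L, 66 were on, 32 low and 82 off. On in both hybrids were 31 genes, off in both were 60, on in H and off in L were 12, and on in L and off in H were 21. Among the 50 steady genes, 26 were on in H, 8 low and 16 off, whereas 34 were on in L, 2 low and 14 off. In leaf tissue as a whole, fewer cells of a type expressing a gene and less RNA per cell cannot be told apart.

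The classes differed in how many genes the hybrids expressed. Of the 34 shared genes, 18 were on in H (52.9%) and 25 in L (73.5%), and among the 17 steady ones 13 were on in H and 17 in L. Of the 61 genes of G70 alone, 16 were on in H (26.2%), 7 low and 38 off. Of the 41 genes of K326 alone, 11 were on in L (26.8%), 7 low and 23 off. In the steady subset, H had 8 of 19 genes of G70 alone on, and L had 6 of 7 genes of K326 alone on.

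Per library, the counts varied with the class. Genes of G70 alone at 1 FPKM or more numbered 19, 18 and 19 in H replicates 1 to 3, against 44, 50 and 51 in the G70 libraries and 5, 6 and 5 in the HP2 libraries. Shared genes at that level numbered 16, 18 and 20 in the H libraries and 27, 24 and 24 in the L libraries. Genes of K326 alone at that level varied more, with 11, 8 and 14 in the H libraries and 15, 15 and 12 in the L libraries. For shared genes, the lowest L library had more shared genes on than the highest H library. H replicate 3 was the highest of the 3 H libraries for shared genes and for genes of K326 alone.

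**Figure D2:**
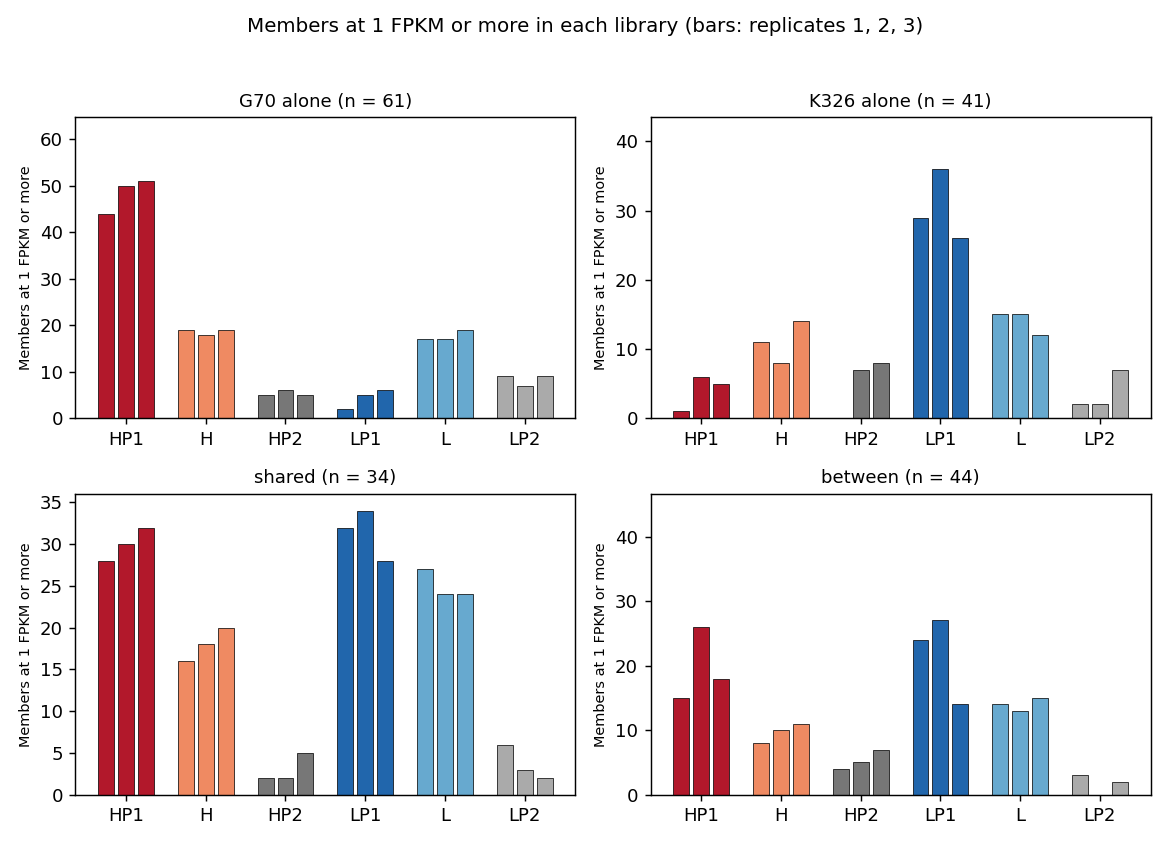
Number of genes at 1 FPKM or more (y axis) in each of the 18 libraries (bars, replicates 1 to 3 in each of 6 groups on the x axis), in 1 panel per class. In the G70-alone panel the H bars stand at 18 to 19 and the L bars at 17 to 19 of 61 genes. In the shared panel the H bars stand at 16 to 20 and the L bars at 24 to 27 of 34.

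Some genes were on in a hybrid although its labelled female parent and the GDH11 libraries taken as 1 set of 6 had them off. Of the 61 genes of G70 alone, 16 were on in L (26.2%), as many as in H. Per library, 17, 17 and 19 of the 61 reached 1 FPKM in L, against 2, 5 and 6 in K326 and 9, 7 and 9 in LP2, where low values were part of the choice. Of the 16, 8 were on in both hybrids. Of 28312 genes off in G70, K326 and GDH11, 37 were on in L (0.131%) and 46 in H (0.162%). Those genes were on in no parent, whereas the members were chosen for being on in a female parent. The shares are therefore not like for like. In the mirror case, 7 of the 41 genes of K326 alone were on in H (17.1%), 5 of them on in L as well. With the GDH11 median taken within the cross instead, a reading chosen after the data were seen, 54 genes of G70 alone were off in both LP1 and LP2, and 15 of these were on in L. The gene lost from the 16, Nitab4.5_0005054g0050, had an LP2 median of 3.63 FPKM. In the same reading, 36 genes of K326 alone were off in HP1 and HP2, and 7 of these were on in H. In this reading, each hybrid thus had genes on that both of its labelled parents had off. Whether the plants sampled as parents carried the same alleles as the plants that were crossed, and whether each library is what its label says, was not tested. Each share below is therefore relative to the labelled parent. With the stricter demand of at least 1 FPKM in every library of the hybrid, 8 genes of G70 alone were on in L and 9 in H.

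Nitab4.5_0004024g0020 was the most abundant gene of G70 alone. It had 40.39, 29.09 and 18.23 FPKM in the G70 libraries, 46.91, 22.56 and 35.66 in H, and at most 0.09 in any GDH11 library. In L it had 15.78, 20.74 and 15.32 FPKM, although the K326 libraries were at 0.04, 0 and 0.04. The H values overlapped those of G70, and all L values lay below every H value and above every K326 and GDH11 value. The mean was 119.9% of the G70 mean in H and 59.1% in L.

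Nitab4.5_0007178g0020 had the same order of groups. Its FPKM was 11.88, 20.25 and 24.79 in G70, 19.63, 17.81 and 21.25 in H, and 11.17, 10.48 and 10.49 in L, with at most 0.02 in every K326 and GDH11 library. The H mean was 103.1% of the G70 mean and the L mean 56.5%. Nitab4.5_0004344g0010 had 8.02, 7.73 and 23.11 FPKM in G70, 3.5, 6.55 and 8.12 in H, and 4.57, 6.26 and 6.49 in L. It was 0 in the 3 K326 libraries and at most 0.14 in GDH11. Here H and L overlapped, at 46.8% and 44.6% of the G70 mean.

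Nitab4.5_0001032g0100 was at 0 in all K326 and GDH11 libraries. It varied in G70, with 1.16, 9.51 and 25.26 FPKM, and in H, with 7.04, 0.82 and 12.1, while L had 2.53, 6.03 and 6.09. The L values therefore fell inside the range of G70. The H values overlapped that range, with H replicate 2 below every G70 library. A further pair of steady genes, chosen after their values were seen, were on in both hybrids. Nitab4.5_0000188g0190 had 1.89, 1.8 and 2.92 FPKM in L against at most 0.07 in K326, and Nitab4.5_0003168g0020 had 0.83, 1.23 and 1 in L against 0 in K326. Their L means were 48.0% and 25.7% of the G70 mean.

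Other genes of G70 alone were on in H and off in L. Nitab4.5_0006170g0010 had 6.47, 12.27 and 17.1 FPKM in G70, 5.42, 5.05 and 5.36 in H, and 0.28, 0.07 and 0.03 in L. Nitab4.5_0001879g0040 had 3.89, 7.33 and 15.3 FPKM in G70, 5.01, 2.84 and 5.46 in H, and at most 0.07 in L. In both genes the H mean, at 44.2% and 50.2% of G70, was near the mid-parent value, and H and L did not overlap.

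A last set of G70-alone genes was silent in both hybrids. Nitab4.5_0004669g0050 had 4.33, 7.78 and 9.96 FPKM in G70, but 0.04, 0.15 and 0.05 in H and 0.07, 0.04 and 0.13 in L. In all, 9 of the 19 steady genes of G70 alone were off in both hybrids. Of these, chosen after their values were seen, Nitab4.5_0006324g0040 had 2, 2.97 and 3.46 FPKM in G70 and 0 in every library of the other groups. Nitab4.5_0002742g0040 had 3.39, 9.03 and 6.24 FPKM in G70 and at most 0.01 in H, K326 and L. The H mean of these 9 genes was between 0 and 4.24% of the G70 mean.

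The genes of K326 alone were mixed: the 41 included 23 off in L, and 14 with a share under 10% of K326. The most abundant steady ones were kept in L at intermediate levels, and some were on in H. Nitab4.5_0006949g0020 had 11.14, 18.9 and 9.5 FPKM in K326, 6.11, 5.68 and 4.93 in L, and 4.24, 3.41 and 7.09 in H, with at most 0.08 in G70 and 0.03 in GDH11. The L mean was 42.3% and the H mean 37.3% of the K326 mean, and the hybrids overlapped. Its neighbour on the same scaffold, Nitab4.5_0006949g0030, had 3.87, 3.81 and 3.73 FPKM in K326, 2.08, 2.29 and 2.07 in L, and 3.41, 1.07 and 1.73 in H. At 56.4% of K326 in L and 54.4% in H it followed the same pattern.

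Nitab4.5_0000202g0480 had 4.42, 9.2 and 4.33 FPKM in K326, 3.94, 4.07 and 5.29 in L, and 4.02, 4.71 and 5.93 in H, against at most 0.03 in G70. The K326, L and H ranges overlapped. By contrast, Nitab4.5_0005779g0010 had 7.64, 9.53 and 9.35 FPKM in K326 and 4.74, 1.99 and 4.8 in L, but only 0.05, 0.04 and 0.02 in H. Other K326-alone genes were not steady: Nitab4.5_0005207g0030 had 4.24, 0.2 and 10.59 FPKM in K326, 0, 13.17 and 0 in L and 4.74 in a single G70 library. Nitab4.5_0006484g0030 likewise ranged from 0 to 5 FPKM over the K326 libraries, with 1.21 in a GDH11 library.

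**Figure D3:**
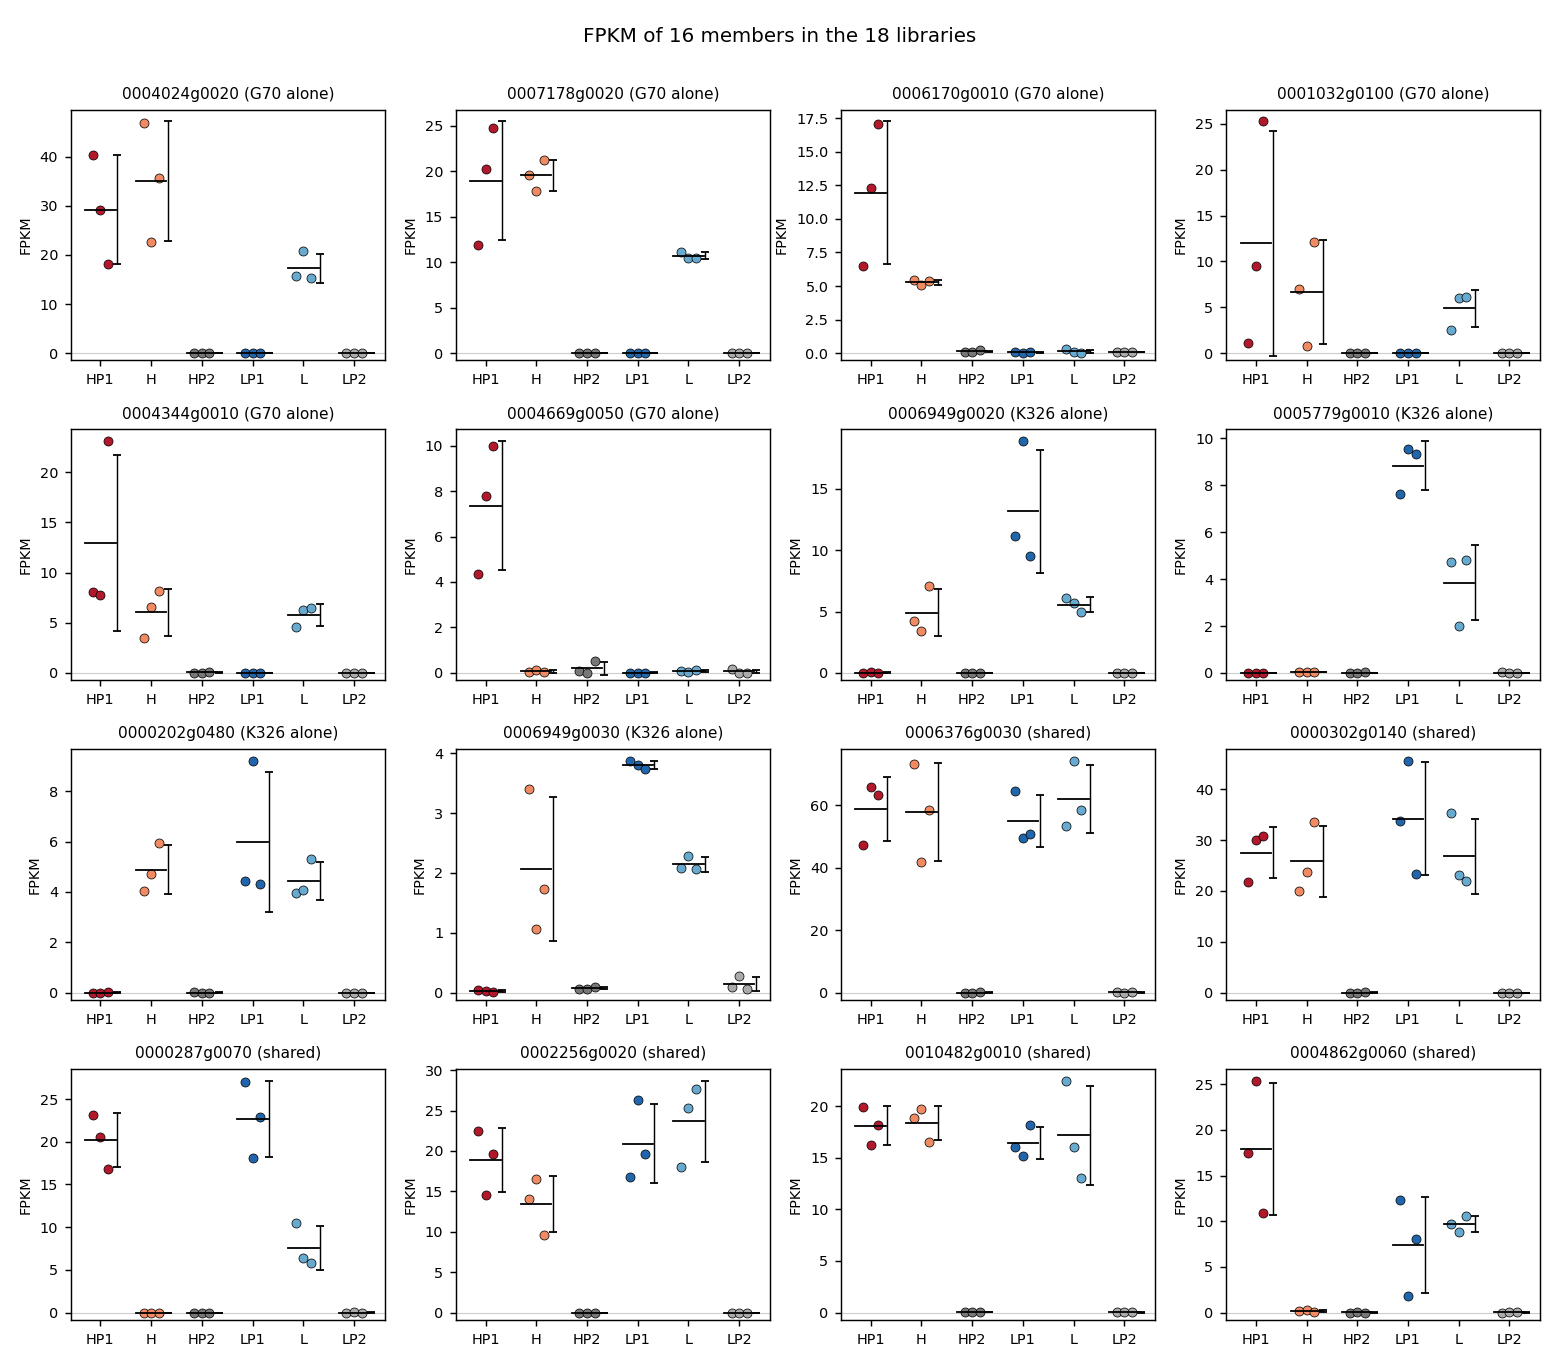
FPKM (y axis, linear) of 16 steady genes in the 18 libraries, by group on the x axis; points are libraries, horizontal lines are means and vertical bars are 1 SD (n = 3). Nitab4.5_0004024g0020, Nitab4.5_0007178g0020 and Nitab4.5_0004344g0010 were near 0 in LP1 and LP2 but on in L, and Nitab4.5_0000287g0070 was 0 in the 3 H libraries although all HP1 libraries were at 16.86 FPKM or more.

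Of the 5 shared genes with the highest lower female median, 4 were on in both hybrids at levels overlapping the female parent, and the other, Nitab4.5_0000287g0070, is described below. Nitab4.5_0006376g0030 had 47.22, 65.77 and 63.39 FPKM in G70, 73.11, 41.88 and 58.39 in H, 64.46, 49.65 and 50.74 in K326, and 53.26, 74.21 and 58.6 in L, with at most 0.13 in GDH11. Its mean was 98.3% of G70 in H and 112.9% of K326 in L, roughly double the mid-parent value. Nitab4.5_0000302g0140, Nitab4.5_0002256g0020 and Nitab4.5_0010482g0010 behaved alike. Their shares were 93.7%, 71.2% and 101.3% of G70 in H and 78.3%, 113.3% and 104.5% of K326 in L. In each of these 4 genes the values of each hybrid overlapped those of its female parent.

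Other shared genes were lost in H and kept in L. Nitab4.5_0000287g0070 had 23.11, 20.55 and 16.86 FPKM in G70 and 27.04, 18.14 and 22.91 in K326. It was 0 in the 3 H libraries and had 10.53, 6.43 and 5.8 FPKM in L, 33.4% of the K326 mean. Nitab4.5_0004862g0060 had 17.43, 25.4 and 10.92 FPKM in G70 but 0.17, 0.32 and 0.08 in H, while K326 had 12.31, 1.86 and 8.06 and L had 9.72, 8.82 and 10.55. In these genes no H value reached 1 FPKM and every L value exceeded 5 FPKM.

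Nitab4.5_0001649g0060 was at 1.88, 8.36 and 7.34 FPKM in G70, at 0.08, 0.16 and 0.03 in H, at 7.31, 7.97 and 4.93 in K326 and at 2.76, 1.88 and 1.82 in L. Its L mean was 32.0% of K326, below the mid-parent value. Nitab4.5_0000525g0040 was uneven in H, with 1.3, 6.7 and 0.57 FPKM against 3.21, 12.62 and 13.68 in G70, whereas L had 5.12, 8.48 and 7.59 against 4.95, 8.21 and 7.76 in K326. For that gene L overlapped its female parent and H spread over a wide range.

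The share of the female parent kept by each hybrid was then summarised as the hybrid mean over the female mean. As the female and GDH11 values chose the genes, these shares are descriptions and were not tested. Over the 115 genes on in G70, the median share in H was 33.5% (quartiles 1.62% and 74.5%). The share was under 10% for 37 genes, 10 to 35% for 22, 35 to 65% for 20, 65 to 100% for 19 and over 100% for 17. Over the 99 genes on in K326, the median share in L was 55.9% (quartiles 19.95% and 100.3%), with 18, 20, 21, 15 and 25 genes in the same bins.

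Shares were thus spread from absence to above the female parent, and a minority lay around the mid-parent value of 50%. Single high libraries lifted the group means of weak genes. With group medians in place of means, the median share was 5.26% in H and 34.9% in L. Computed for each hybrid library, it was 5.91%, 8.62% and 8.55% in H and 53.6%, 41.8% and 37.4% in L. The lowest L library lay above the highest H library, but the 2 sets of genes and the 2 reference parents differ.

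Shared genes allow both hybrids to be set on the same 34 genes. Their median share was 75.1% of G70 in H and 77.2% of K326 in L. Shares under 10% were found for 9 of the 34 in H and for 1 in L. For genes of a single female parent the shares were lower, with a median of 25.3% over the 61 genes of G70 alone in H and 31.7% over the 41 genes of K326 alone in L.

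In the steady subset the shares were similar from library to library. Over the 39 steady genes on in G70, the median share per H library was 33.6%, 34.2% and 27.4% (31.7% ± 3.73, SD, n = 3). Over the 28 steady genes on in K326, it was 82.9%, 79.5% and 77.6% per L library (80.02% ± 2.65, SD, n = 3). With the hybrid mean in place of single libraries, the median share was 41.3% over the 39 genes in H. In L it was 85.2% over the 28 genes. Of the 39, 15 had under 10% in H and 8 had over 100%. Of the 28, 0 had under 10% in L and 12 had over 100%.

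**Figure D4:**
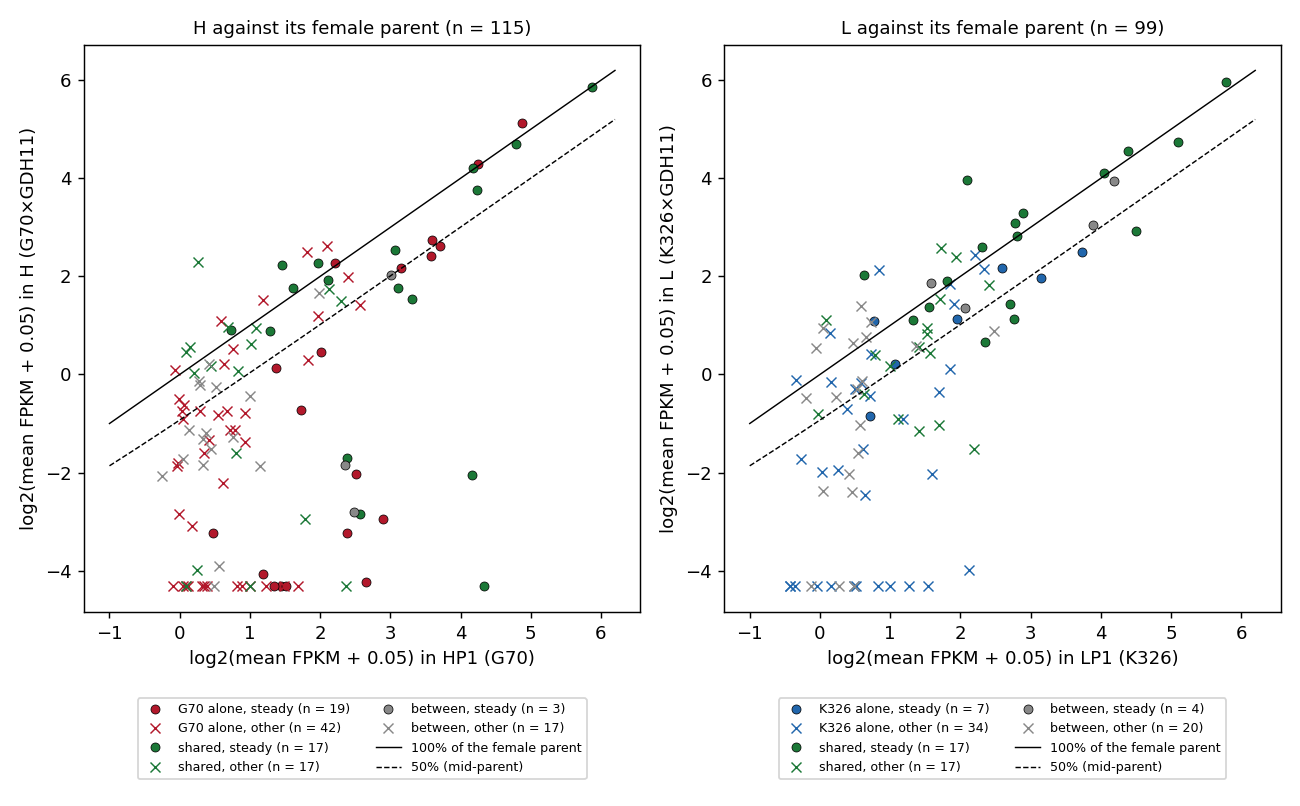
Mean FPKM of a hybrid (y axis) against its female parent (x axis), both as log2(FPKM + 0.05), for the 115 genes on in G70 (left) and the 99 genes on in K326 (right); filled circles are steady genes, crosses the others, colours the classes. In H, 37 of 115 genes lie under 10% of the female parent, whereas in L 18 of 99 do.

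The hybrids were compared directly, since their values did not choose the genes. The spread in the test, however, was estimated over all 18 libraries, including the parental ones that chose the genes. This holds for both filters below. In the limma test over all 18 libraries, 55 of 34960 genes tested were DEGs between H and L (0.157%), where a DEG has an adjusted p up to 0.05 and at least a 2-fold change on the scale of log2(FPKM + 1). Of the 180 genes, 161 passed the filter on low values, and 11 of these were DEGs (6.83%). That filter also read the parental libraries that chose the genes. With a filter over the H and L libraries alone, added after the data were seen, 69 of the 180 entered and the same 11 were DEGs, 3 higher in H (background 0.052%) and 8 higher in L (background 0.122%), at a background of 0.175% in either direction. Over the 18-library filter, the background was 0.0458% of all genes tested for those higher in H and 0.112% for those higher in L. The other 150 of the 161 genes did not pass. The median log2 difference of H minus L was -0.05 over the 161 genes and -0.08 over all genes tested. Shared genes had a median of -0.40, with 4 of 34 higher in L and 0 higher in H. All 11 DEGs belonged to the steady subset. Without adjustment for the number of genes tested, 6 were higher in H and 18 in L. At unadjusted p no share over all genes was computed, so these counts have no background. With only the H and L libraries in the fit, 150 of the 180 genes entered, and 2 were higher in H and 5 higher in L. No share over all genes was computed for that fit.

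The genes higher in H were those that L lacked. Nitab4.5_0006170g0010 differed by 2.48 on the log2(FPKM + 1) scale (SE 0.24, adjusted p = 6.7e-05 in limma), and Nitab4.5_0001879g0040 by 2.33 (SE 0.31, adjusted p = 0.0029 in limma). Nitab4.5_0000425g0150, a gene on in G70 and low in K326, had 2.69, 2.74 and 6.71 FPKM in H and at most 0.02 in L. It differed by 2.23 (SE 0.33, adjusted p = 0.0072 in limma), but with only the H and L libraries in the fit the adjusted p was 0.164.

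The genes higher in L were mostly off in H. Nitab4.5_0003830g0030 had 11.64, 19.65 and 12.83 FPKM in K326, 8.64, 7.26 and 8.92 in L, and 0, 0.06 and 0.12 in H, with a G70 median of 0.13. The H minus L difference was -3.13 (SE 0.18, adjusted p = 3.2e-07 in limma). Nitab4.5_0000287g0070 differed by -3.06 (SE 0.21, adjusted p = 1.5e-06) and Nitab4.5_0004862g0060 by -3.17 (SE 0.41, adjusted p = 0.0017), by the same limma test. For these 3 genes all H values lay below all L values.

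Nitab4.5_0005779g0010 of K326 alone differed by -2.16 (SE 0.21, adjusted p = 7.9e-05 in limma), with an adjusted p of 0.150 when only the H and L libraries were fitted. Nitab4.5_0000011g0020 had 4.47, 3.45 and 2.81 FPKM in L and at most 0.11 in H, a difference of -2.09 (SE 0.32, adjusted p = 0.0100 in limma). This call was lost without H replicate 1, H replicate 2, L replicate 1 or L replicate 2 and without the 3 libraries that stood apart in the G70 cross, its adjusted p reaching 0.0693 over the alternatives. The remaining 3 DEGs are named after their values were seen. Nitab4.5_0006641g0020 had 2.1, 2.61 and 2.86 FPKM in L and at most 0.1 in H. Nitab4.5_0001614g0190 had 3.52, 2.7 and 1.78 FPKM in L and 0.33, 0 and 0.44 in H, and Nitab4.5_0005645g0010 had 7.44, 8.42 and 9.67 in L and 4.95, 2.8 and 2.35 in H. The last 2 calls were kept in 7 and 4 of the 14 alternatives, while that of Nitab4.5_0006641g0020 was kept in all 14.

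**Figure D5:**
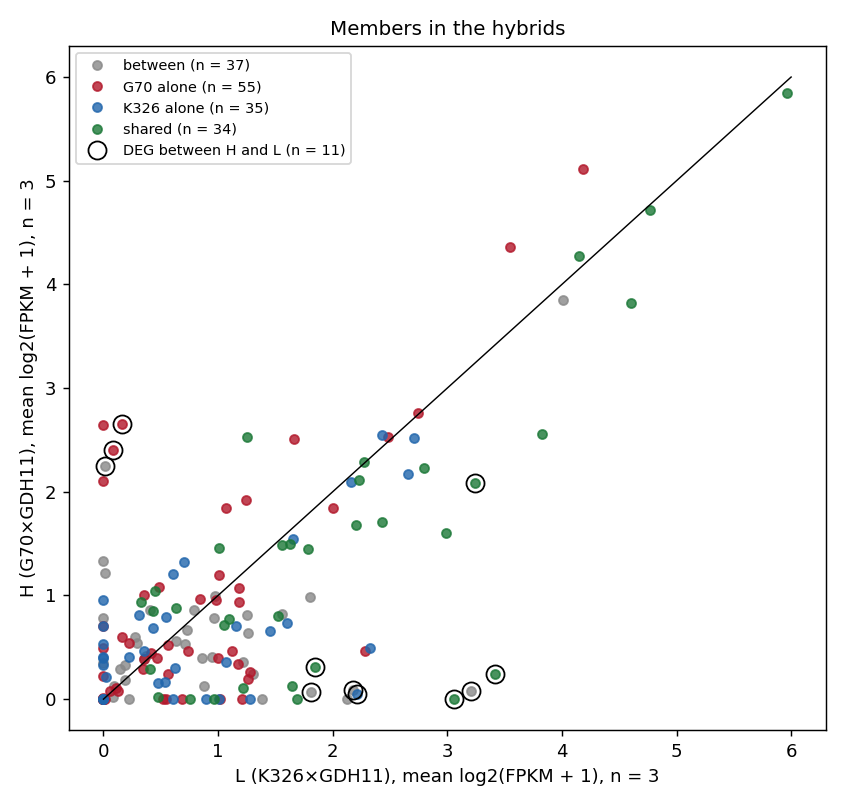
Mean log2(FPKM + 1) in H (y axis, n = 3 libraries) against L (x axis, n = 3 libraries) for the 161 genes tested, coloured by class, with the line of equality; rings mark the 11 DEGs. Of the ringed genes, 3 lie far above the line with L near 0 and 8 below it, 7 of these with an H mean under 1.

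Beside their own parents, the genes gave the following counts, from which nothing is read since parental values chose the genes. Against HP1, 19 of 112 genes tested were DEGs in H, at a background of 0.488% of all genes tested. Of these, 3 were higher in H (background 0.294%) and 16 lower (background 0.194%). Against HP2, 19 of 112 were higher in H (background 0.209%, or 0.421% in either direction) and 0 lower (background 0.212%). Against LP1, 7 of 99 were higher in L (background 0.128%, or 0.17% in either direction) and 0 lower (background 0.0418%), all 7 being genes of G70 alone. Without adjustment for the number of genes, 11 were higher and 12 lower, with no share over all genes computed beside them. Against LP2, 31 of 99 were higher in L (background 0.245%, or 0.266% in either direction) and 0 lower (background 0.0209%), or 22 with the replicate number as a block. Against HP2 and LP2, 0 genes were lower in H or in L also without adjustment. The 7 calls against LP1 were 3 without any 1 K326 library, 2 without L replicate 1 and 0 without L replicate 2 or L replicate 3. The 19 calls against HP1 were 4, 4 and 3 without HP1 replicate 1, 2 and 3, where 78, 68 and 75 genes passed the filter.

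The genes were scattered over the genome assembly. They lay on 176 of 12822 scaffolds, taking the part of the identifier before the g as the scaffold, and 4 scaffolds held 2 each. Besides the pair Nitab4.5_0006949g0020 and Nitab4.5_0006949g0030, Nitab4.5_0016410g0020 and Nitab4.5_0016410g0030 were neighbours. The former had 0, 2.31 and 5.93 FPKM in G70, and the latter 10.08, 0 and 1.01 in K326 and 3.95 in a G70 library, so neither was steady. On another scaffold, Nitab4.5_0006870g0010 had 5.11, 17.7 and 24.05 FPKM in L against 6.59, 1.91 and 4.15 in K326. Nitab4.5_0006870g0060 also had its highest value in L, with 1.65, 3.48 and 2.6 FPKM against 2.07, 1.1 and 1.19 in K326. Both pairs of groups overlapped. Nitab4.5_0000011g0080, on the scaffold of Nitab4.5_0000011g0020, was a weak gene of G70 alone at 1.56, 0 and 1.96 FPKM in G70, and was low in H at 0.42, 0.52 and 0.71.

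Genes next to a member and on in a female parent were mostly on in GDH11 too. Of 287 adjacent genes, 139 were on in a female parent, and 119 of these (85.6%) were also on in GDH11 while 4 were off there. Those 4 were themselves members, in the 2 neighbouring pairs named above, since any gene on in a female parent and off in GDH11 is a member. Over all genes on in a female parent, 94.6% were on in GDH11.

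The mirror set, genes on over the 6 GDH11 libraries and off in a female parent, was smaller, with 125 genes. Of its 81 genes off in G70, 51 were on in H (62.96%), and of its 69 genes off in K326, 29 were on in L (42.0%). In the set silent in GDH11, 115 genes were on in G70, and the shares on in H were 26.2% for G70 alone and 52.9% for shared genes. In L, they were 26.8% for K326 alone and 73.5% for shared genes. The mirror share thus lay above both classes in H but between them in L. In the other hybrid, 54 of the 81 mirror genes were on in L and 31 of the 69 in H. The sets are not alike in choice: on meant a median over 6 GDH11 libraries in the mirror set and over 3 female libraries in the other.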

How the data were processed

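RNA-seq libraries from middle leaves of 18 samples in 6 groups of 3 were analysed. Per the paper's methods, low-quality reads and very short reads were removed, and reads were mapped to the K326 genome with TopHat2, while the submitters' processing notes name HISAT2, StringTie and RSEM. Versions are not given in the sources used here. The deposited table holds FPKM values that the authors rounded to 2 decimals, although it is described as counts. Its sums differ between libraries. Fragment counts and depth cannot be read from it, so the count test of the study was not used. The 6 further tables, with 1 value per gene and group, were not used here.

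The limits on medians were applied to FPKM as deposited. DEGs came from limma 3.58.1 in R 4.3.3 (moderated test with trend) on log2(FPKM + 1), which understates changes of weak genes. Genes at 1 FPKM or more in at least 3 libraries of the fit entered, except that the alternative fit over H and L only kept the 18-library filter. H against L was fitted over 18 libraries, and each hybrid against its parents over the 9 libraries of its cross. P-values were adjusted by Benjamini-Hochberg over all genes tested. The script was tested on simulated data. P-values measure the spread between plot samples.

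The genes and lists were chosen with earlier results of these data known. Named genes were the 8 shared genes with the highest lower female median, the 6 highest of G70 alone and of K326 alone, the 3 with the smallest p in each direction between H and L, members on scaffolds with the most members (4 scaffolds tied at 2), any K+ or qRT-PCR gene of the study (0 found) and the 2 nearest each limit. Others are said to be chosen after their values were seen. The replicate numbers of L and LP2 deviated together (correlations 0.537, 0.248 and 0.228 for replicates 1 to 3), while for the other pairs of groups compared at least 1 correlation was under 0.1.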

Additional observations from a re-analysis of the deposited data

Results flagged for a closer look

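Among the genes named by rule and the 50 steady genes, 9 moved in opposite directions in the crosses when each hybrid was set against its own female parent, with no overlap of the 3 hybrid and 3 female libraries in either cross. The difference between crosses was not tested. No share over all genes was computed for this count, so nothing is read from its size. The values are the H minus HP1 difference less the L minus LP1 difference on the log2(FPKM + 1) scale.

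H lay above G70 and L below K326 in 5 genes, with values of 3.635 for Nitab4.5_0006949g0020, 2.181 for its neighbour Nitab4.5_0006949g0030, 1.625 for Nitab4.5_0005985g0030, 1.502 for Nitab4.5_0021312g0010 and 1.065 for Nitab4.5_0005779g0010. In the last, the rise of H over G70 was between values of at most 0.05 FPKM. H lay below G70 and L above K326 in 4 genes, with values of -3.044 for Nitab4.5_0004669g0050, -2.107 for Nitab4.5_0003168g0020, -1.417 for Nitab4.5_0005645g0010 and -1.208 for Nitab4.5_0011093g0030. In Nitab4.5_0004669g0050 and Nitab4.5_0011093g0030 the rise of L over K326 was between values of at most 0.13 FPKM. All of these genes except Nitab4.5_0021312g0010 and Nitab4.5_0005645g0010 were of G70 alone or K326 alone. For these classes the choice by parental values favoured opposite directions. In the limma fit, H minus L was only -0.20 for Nitab4.5_0006949g0020 and -0.00064 for Nitab4.5_0004669g0050, but -2.16 for Nitab4.5_0005779g0010.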

How the results depend on the processing

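The number of genes was 384 with a female limit of 0.5 FPKM and 80 with 2 FPKM. It stayed 180 without any single hybrid library and was 198 to 268 without single parental libraries. With HP1 replicate 2 or HP1 replicate 3 left out, 156 of the 180 remained, the lowest such count. Genes higher in H than in L numbered 3 in each leave-one-out fit, 2 with only H and L fitted and 6 at unadjusted p. Genes higher in L numbered 5 to 7 with a hybrid library left out, 5 with only H and L fitted and 18 at unadjusted p. The counts at unadjusted p have no share over all genes beside them. With the replicate block they were 3 and 6, and pairing changed no count by over 1.5 times; the block moved the calls of L against LP2 from 31 to 22. Without single libraries, calls were 3 to 16 for H against HP1, 11 to 21 for H against HP2, 0 to 10 for L against LP1 and 13 to 34 for L against LP2. L against LP1 gave 4 calls with a pseudocount of 0.1 FPKM and 11 without the filter. The cause of these shifts was not tested, except that fewer genes passed the filter with fewer libraries.

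The median share in H was 5.26% with group medians, 48.5% over genes at 5 FPKM or more in G70, 22.1% without the 3 libraries that stood apart in the G70 cross (HP1 replicate 1, HP2 replicate 1 and H replicate 3), and 24.2% to 36.3% with single libraries left out. In L it was 34.9%, 78.3% over genes at 5 FPKM or more in K326, and 40.1% to 70.1%. Counts below were chosen after seeing the data. With every hybrid library at 1 FPKM, 9 genes of G70 alone were on in H and 8 in L. With single hybrid libraries left out, these were 17 to 20 and 16 to 21, and genes of K326 alone were 8 to 13 in H and 14 to 17 in L. For the 11 DEGs between H and L, no direction was reversed in any alternative run. Directions of the other results were not checked in this way. Unknown depth limits all statements on values near 0.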
